A study of Mus musculus with 7 samples.

Results

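Protocadherins are cell-surface adhesion proteins of the cadherin superfamily. The genes described here are the rows of a mouse transcript abundance table whose symbol starts with Pcdh, which gave 70 of 54309 rows. They carry 69 symbols, because Pcdha11 stands on 2 rows with separate Ensembl identifiers. No row is named Pcdha10, and in GENCODE M21 the rows named Pcdha11 are at positions 10 (ENSMUSG00000007440) and 11 (ENSMUSG00000102206) of the alpha cluster, so which gene the former stands for is uncertain. The rows comprise 14 genes of the alpha cluster, 22 of the beta cluster, 22 of the gamma cluster (12 gamma A, 7 gamma B and 3 gamma C) and 12 non-clustered genes.

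Clustered protocadherins lie side by side on chromosome 18. In the alpha and gamma clusters each gene has its own large variable exon, which encodes the extracellular part and is spliced to small constant exons that all genes of the cluster share, whereas a beta gene has no shared constant exon. Single neurons choose a few of the many promoters, a choice linked to CTCF, cohesin and DNA methylation, and the resulting mixtures of proteins bind like with like between cell membranes and let a neuron tell its own branches from those of others. Non-clustered protocadherins are spread over the genome and include the delta-1 genes (Pcdh1, Pcdh7, Pcdh9 and Pcdh11x) and the delta-2 genes (Pcdh8, Pcdh10, Pcdh17, Pcdh18 and Pcdh19). Several delta-2 proteins recruit the WAVE complex, which drives actin branching, and act in axon outgrowth and in the sorting of neurons into groups.

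RNA was sequenced from the fourth to sixth lumbar dorsal root ganglia (L4-6 DRG), which hold the cell bodies of sensory neurons, 72 h after injury of the sciatic nerve. Mice were injured and dissected at the same Zeitgeber time (ZT, in hours since lights went on), ZT20 in 4 samples and ZT8 in 3, and the series concerns how clock time tunes axonal regeneration. All 7 samples are labelled C57bl/6, male and aged 6 to 8 weeks, with no transgene or deletion named in either group. Ganglia were digested with dispase, collagenase and papain, and cells were spread on a 15% albumin gradient, so that each sample is a neuron-enriched mixture and not a pure neuron preparation. No uninjured samples were used here, and the time of injury and the time of dissection cannot be told apart. The labels do not say whether the samples came from separate animals, so p-values measure the spread between these samples.

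Some libraries stood apart. The Y-linked Ddx3y, Eif2s3y and Uty were at 0 TPM (transcripts per 1000000 transcripts) in ZT20 replicates 3 and 4, against 5.66 to 27.7 TPM in ZT20 replicates 1 and 2, although all samples are labelled male. Xist, the X-inactivation transcript, reached 1.08, 2.21 and 2.30 TPM in replicates 2, 3 and 4 of ZT20 and at most 0.00467 TPM in the other 4 samples. ZT8 replicate 2 had 18297 genes above 0 TPM, against 22541 to 25238 in the other samples. Library identifiers were numbers at ZT20 and letters at ZT8, so any batch behind them cannot be told apart from the group. TPM carries no sequencing depth, so counting error is unknown.

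Promoter sequences are shown for Pcdh17 and Pcdh18, the protocadherin genes that passed the test below, and for Pcdh9, the most abundant one. They are RefSeq sequences of the GRCm38.p6 build, 250 bases upstream of the annotated start, printed 5′ to 3′ on the strand of the gene. Capitals mark a CCAAT box, searched as GCCAATC on both strands after the sequences had been seen.
Pcdh17, chr14:84443313-84443562, plus strand: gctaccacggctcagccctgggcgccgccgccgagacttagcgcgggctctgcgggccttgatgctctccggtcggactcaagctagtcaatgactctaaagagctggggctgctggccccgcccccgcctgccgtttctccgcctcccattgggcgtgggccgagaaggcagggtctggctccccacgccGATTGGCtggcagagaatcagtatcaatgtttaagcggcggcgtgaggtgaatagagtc
Pcdh18, chr3:49757317-49757566, minus strand: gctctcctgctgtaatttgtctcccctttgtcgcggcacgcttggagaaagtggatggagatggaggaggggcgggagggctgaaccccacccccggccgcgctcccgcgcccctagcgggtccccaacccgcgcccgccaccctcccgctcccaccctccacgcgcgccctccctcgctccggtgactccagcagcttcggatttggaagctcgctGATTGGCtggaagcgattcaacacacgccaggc
Pcdh9, chr14:93890680-93890929, minus strand: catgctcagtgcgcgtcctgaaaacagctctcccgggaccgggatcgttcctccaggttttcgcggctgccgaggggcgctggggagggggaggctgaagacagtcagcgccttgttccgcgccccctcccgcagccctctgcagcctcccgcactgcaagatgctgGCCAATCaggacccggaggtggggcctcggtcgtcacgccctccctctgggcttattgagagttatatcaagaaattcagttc

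These promoters were rich in G and C, at 64.8% for Pcdh17, 68.0% for Pcdh18 and 63.6% for Pcdh9, against a median of 52.4% over all 32851 promoters of the same length. They held 21, 23 and 18 CpG dinucleotides respectively, against a median of 6. A promoter was listed for 9 protocadherin symbols, all non-clustered, at 10 start positions. The CCAAT box letters occurred in 4 of these 9 genes and in 6.33% of all promoters. The clock E-box CACGTG occurred in 0 of the 10 windows and in 6.02% of all promoters, and the D-box TTANGTAA in 0 of 10 and 2.06%, both strands included. The core of the CTCF motif, searched as 12 letters with wildcard positions on both strands, occurred in 1 window, that of Pcdh15, and in 2.07% of all promoters. No window of a clustered gene was examined.

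Over the protocadherin genes, transcript levels leaned towards ZT20, but few single genes passed the test. Pcdh17 and Pcdh18, both delta-2 genes, rose at ZT20, and 0 genes fell. Summed TPM over all 70 rows was 419, 418, 485 and 531 at ZT20 (replicates 1 to 4, an order kept below) and 322, 252 and 337 at ZT8 (replicates 1 to 3). All 4 ZT20 sums lay above all 3 ZT8 sums, with a ratio of means of 1.53. In bulk samples, fewer cells of a type and less RNA per cell cannot be told apart.

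A mean of at least 1 TPM was reached by 53 of the 70 rows, which were tested on log2(TPM + 1) with limma, with Benjamini-Hochberg adjustment over all 14800 tested genes. By this test 2 of the 53 were higher at ZT20 at an adjusted p under 0.05 (3.77%), against 12.8% of all tested genes higher, 3.61% lower and 16.4% in either direction. The share of protocadherin genes called was below the background in this fit. With a filter of 5 TPM, 3 of 12 protocadherin genes were higher, against 16.5% of all genes. An unadjusted p under 0.05 was reached by 22 of the 53, all with higher values at ZT20, against 34.6% of all tested genes in either direction. A further 12 genes had a limma adjusted p between 0.05 and 0.10, and the counts over all genes at 0.10 are given further below.

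Positive differences (ZT20 minus ZT8) were found for 47 of the 53 genes (88.7%), against 66.4% of all tested genes. The median log2 difference was 0.54 over the protocadherin genes and 0.23 over all tested genes. Values of the groups did not overlap, with ZT20 higher, for 19 of the 53 (35.8%), against 24.5% of all tested genes. With ZT20 lower this held for 0 of the 53, against 8.72%, and over both directions the background was 33.2%. The 17 untested rows had means from 0.0045 to 0.941 TPM.

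Protocadherin transcripts are long, with a median of 4756 nt over the tested members and 3108 nt over all tested genes, and fewer of their differences were positive under a joint correction for length and GC content, whose parts were not run separately. After this loess correction within samples, 26 of 53 differences were positive, against 49.8% of all genes. Their median was then −0.0012, and 0 protocadherin genes passed the limma test, with 2 at an unadjusted p under 0.05. Over all genes 3.8% were then called higher and 5.26% lower. With median-ratio scaling between samples, 44 of 53 were positive against 51% of all genes, and the median was 0.33 against 0.015. Limma then called 1 protocadherin gene, against 7.36% of all genes higher and 8.51% lower. With quantile normalization, 38 were positive and the median was 0.19 against 0.0046 over all genes. Limma then called 1 of 53 protocadherin genes higher, against 6.91% of all genes.

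**Figure D1:**
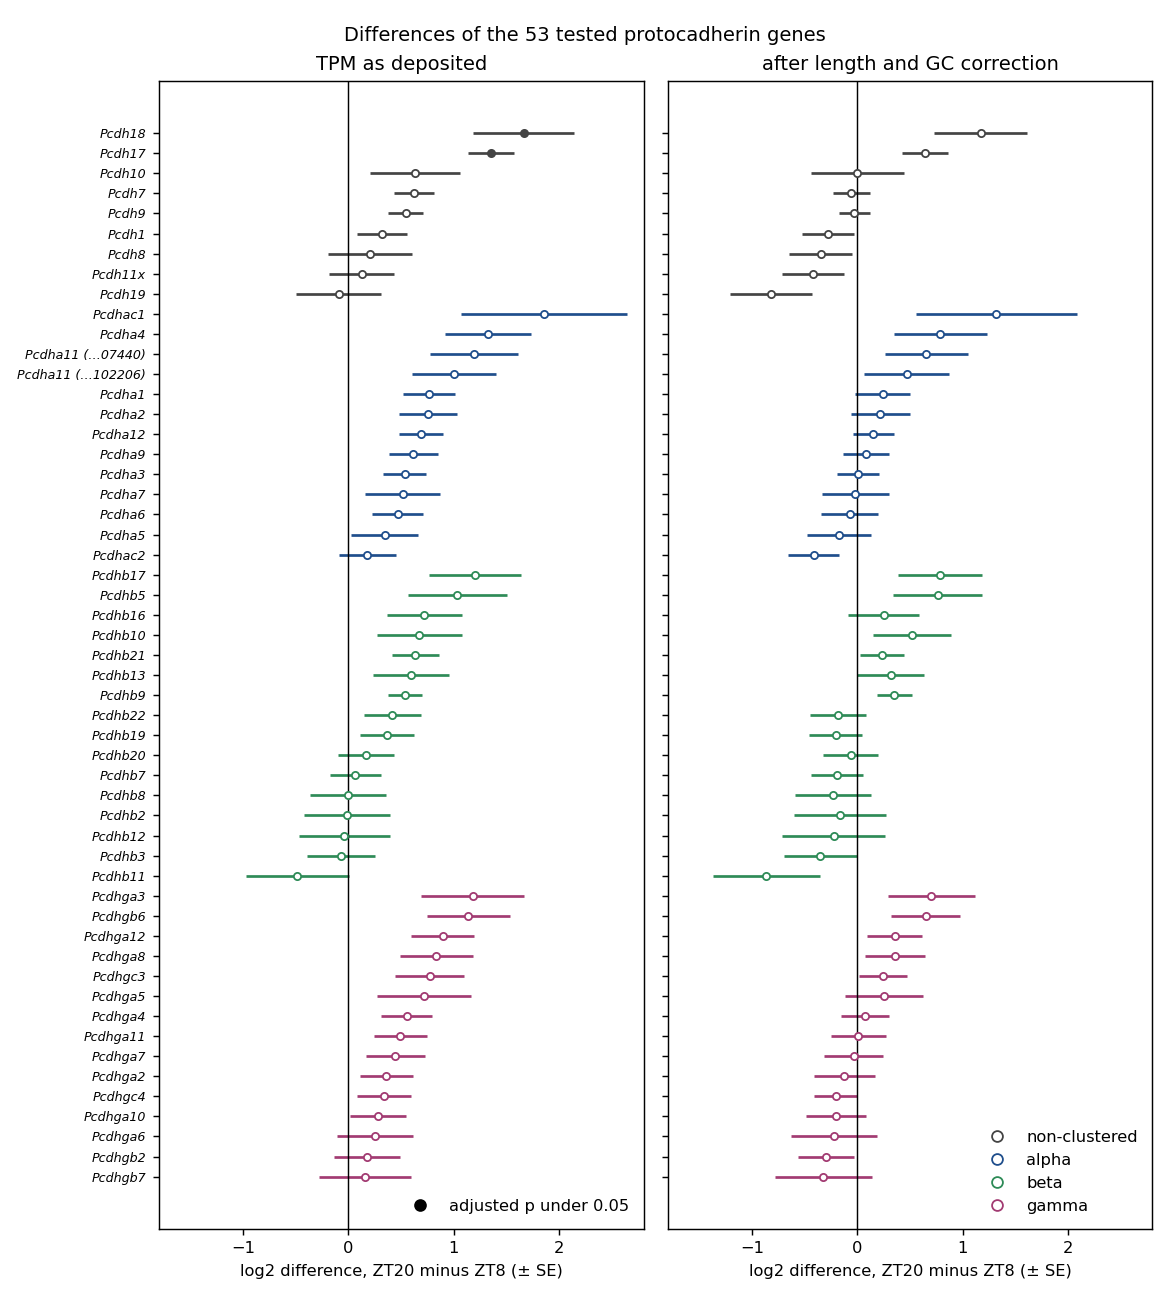
Log2 difference between ZT20 and ZT8 (x axis, log2(TPM + 1) scale, with SE) for each of the 53 tested protocadherin genes (y axis), as deposited on the left and with the correction for length and GC content on the right. Filled points passed an adjusted p of 0.05. On the left 47 of 53 points lie above 0, and on the right 26 do.

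Among the delta-2 genes, Pcdh17 (ENSMUSG00000035566), an adhesion protein of axon bundles and synapses, was at 7.56, 6.86, 7.42 and 8.83 TPM at ZT20. At ZT8 its values were 2.69, 1.71 and 2.89 TPM. The groups did not overlap, and the lowest ZT20 value was above every ZT8 value. Means were 7.67 ± 0.835 TPM (SD, n = 4) at ZT20 against 2.43 ± 0.629 TPM (SD, n = 3) at ZT8. Pcdh17 rose by 1.35 on the log2 scale (SE 0.22, limma adjusted p = 0.00815). It passed with any single replicate left out, at limma adjusted p-values from 0.00573 to 0.0381. After the length and GC correction the difference was 0.64 and no longer passed (limma adjusted p = 0.101). Without ZT20 replicates 3 and 4, the libraries with Ddx3y, Eif2s3y and Uty at 0, the difference was 1.28 (limma adjusted p = 0.177). In that fit 0 of 14687 genes passed and 2378 had an unadjusted p under 0.05. With a Y-linked score as covariate the difference was 1.24 and did not pass (limma adjusted p = 0.0681), in a fit that called 2.11% of all genes.

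Pcdh18 (ENSMUSG00000037892), a delta-2 protein that binds the adaptor Dab1, was at 5.89, 5.06, 7.02 and 9.35 TPM at ZT20. It was at 3.28 and 2.31 TPM in ZT8 replicates 1 and 3 and listed at 0 in ZT8 replicate 2. All ZT20 values were above all ZT8 values. Pcdh18 rose by 1.66 (SE 0.48, limma adjusted p = 0.0472), just under the threshold. Its call rested on the choice of samples and settings: leaving out single replicates gave limma adjusted p-values from 0.0295 to 0.129. Without ZT8 replicate 2, the library at 0, the difference was 1.03 and passed (limma adjusted p = 0.0295). Leaving out any ZT20 replicate, or ZT8 replicate 3, ended the call. The length and GC correction gave 1.17 (limma adjusted p = 0.133), and without ZT20 replicates 3 and 4 the difference was 1.42 (limma adjusted p = 0.341).

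None of the other delta-2 genes passed the test. Pcdh10, which binds a WAVE complex subunit, was at 5.01, 5.15, 4.83 and 3.61 TPM at ZT20 and at 4.95, 0.616 and 3.95 TPM at ZT8. Groups overlapped, only ZT8 replicate 2 was far below the others, and the difference of 0.63 did not pass (SE 0.43, limma adjusted p = 0.324). With single replicates left out, the difference of Pcdh10 ran from 0.049 to 0.99. Pcdh8, whose product (arcadlin) is induced by neuronal activity, was at 2.29, 1.28, 2.56 and 2.02 TPM at ZT20 and 2.62, 0.333 and 2.68 TPM at ZT8. ZT8 replicates 1 and 3 were above all ZT20 samples and replicate 2 below them (difference 0.20, SE 0.40, limma adjusted p = 0.747). Pcdh19, the X-linked epilepsy gene, was at 0.719, 1.21, 1.68 and 1.48 TPM at ZT20 and 0.483, 3.56 and 1.01 TPM at ZT8. ZT8 held both its lowest and its highest value (difference −0.09, SE 0.40, limma adjusted p = 0.89).

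Among the delta-1 genes, Pcdh9 was the most abundant protocadherin, with 68.2% to 76.4% of the non-clustered TPM in each sample. Its values were 106, 105, 106 and 138 TPM at ZT20 and 93.2, 62.6 and 79.2 TPM at ZT8. The groups did not overlap, and ZT20 replicate 4 was above the rest. Means were 114 ± 16.1 TPM (SD, n = 4) at ZT20 against 78.3 ± 15.3 TPM (SD, n = 3) at ZT8, and the difference of 0.54 missed the threshold (SE 0.17, limma adjusted p = 0.0585). It passed without ZT8 replicate 1 (0.68, limma adjusted p = 0.0414). The length and GC correction left −0.027 (limma adjusted p = 0.923).

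Pcdh7, which acts in the growth of retinal axons, was at 10.8, 13.5, 13.8 and 14.3 TPM at ZT20 and 6.63, 9.50 and 8.44 TPM at ZT8. Values did not overlap, and the difference of 0.62 missed the threshold (SE 0.19, limma adjusted p = 0.0566). It passed without ZT8 replicate 2 (0.72, limma adjusted p = 0.0281), and the length and GC correction gave −0.056 (limma adjusted p = 0.863). Pcdh1 was at 6.25, 6.50, 10.5 and 8.40 TPM at ZT20 and 5.97, 7.33 and 5.00 TPM at ZT8. ZT8 replicate 2 lay inside the ZT20 range (difference 0.32, SE 0.23, limma adjusted p = 0.365).

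Pcdh11x, the X-linked delta-1 gene, was at 0.861, 0.800, 1.16 and 1.68 TPM at ZT20 and 1.76, 0.630 and 0.577 TPM at ZT8. ZT8 replicate 1 had the highest value of all and the other ZT8 samples the lowest (difference 0.13, SE 0.31, limma adjusted p = 0.798). The remaining non-clustered genes, Pcdh12, Pcdh15 and Pcdh20, were below the filter, with means up to 0.446 TPM. Pcdh12, a protocadherin of endothelial cells, was at most 0.169 TPM at ZT20, and every ZT8 sample listed it at 0. In the corrected values 2 of the 9 tested non-clustered genes, Pcdh17 and Pcdh18, had a positive difference, against 8 of 9 as deposited.

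**Figure D2:**
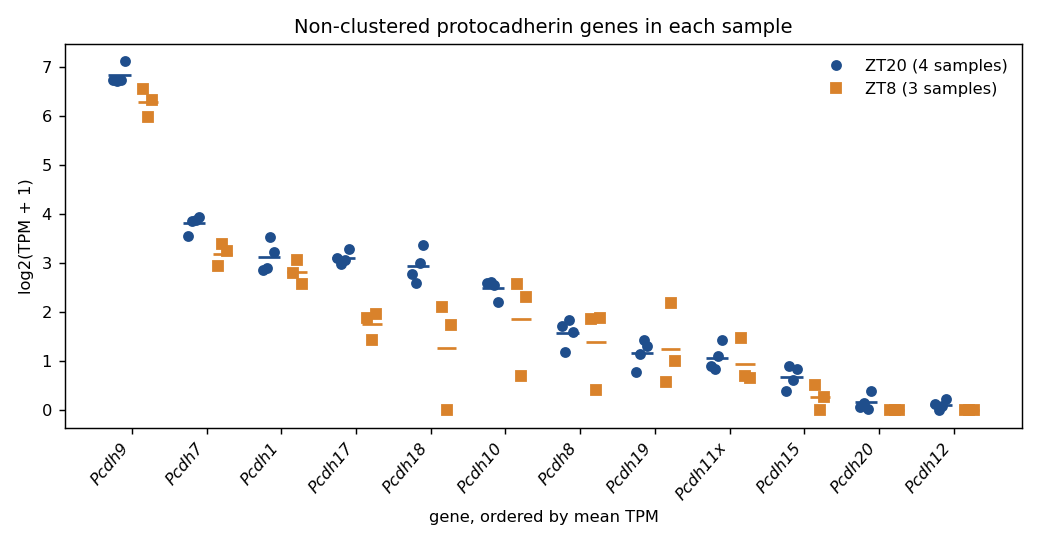
Values of the non-clustered protocadherin genes in each sample (y axis, log2(TPM + 1)), with genes ordered by mean TPM (x axis), circles for the 4 ZT20 samples and squares for the 3 ZT8 samples, and short lines for the group means. Of the 9 tested genes, Pcdh17, Pcdh18, Pcdh7 and Pcdh9 show no overlap between the groups.

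In the alpha cluster the group sums did not overlap, at 139, 151, 179 and 185 TPM at ZT20 and 93.0, 79.3 and 136 TPM at ZT8. Means were 163 ± 22.0 TPM (SD, n = 4) at ZT20 against 103 ± 29.4 TPM (SD, n = 3) at ZT8, a log2 ratio of 0.67. The length and GC correction took the log2 ratio to 0.055 and median-ratio scaling to 0.42. Of 14 alpha rows 13 were tested, all with positive differences and a median of 0.69. Limma called 0 of them, against 16.4% of all tested genes, and 9 of 13 had an unadjusted p under 0.05, against 34.6%. Groups did not overlap for 6 of 13, ZT20 being higher, against 24.5% of all tested genes. After the correction 9 of 13 remained positive.

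Reads of the alpha genes are hard to divide. In GENCODE M21 models (GRCm38), the longest transcripts of all 14 alpha genes share 2860 nt of constant exons, which is 48.6% to 54.9% of their length. Of the 31-base words in an alpha transcript, 2.18% to 51.6% (median 36.4%) occurred in no transcript of another gene, against 99.8% to 100% for non-clustered genes. Values of single alpha genes may therefore depend on how the quantifier divided shared reads, and the cluster sum may depend on it less. This was not tested, and reads given to read-through models are outside the cluster sum. Pcdha4 stood out, since 98.3% of its longest transcript is shared with other genes, the read-through model Gm42416 among them. Pcdha4 was at 8.15, 3.30, 2.04 and 1.94 TPM at ZT20, where Gm42416 was at 0, 3.09, 5.62 and 4.72 TPM. At ZT8 Pcdha4 was at 0.569, 0.940 and 0.714 TPM and Gm42416 at 2.81, 4.55 and 5.11 TPM. Values of Pcdha4, named after they were seen, did not overlap between the groups, and its difference of 1.32 did not pass (SE 0.41, limma adjusted p = 0.0589).

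Pcdhac2, a C-type gene at the 3′ end of the alpha cluster and the one that serotonergic axons need for their spacing, had the highest mean TPM of all clustered genes. It was at 29.4, 49.7, 63.3 and 61.6 TPM at ZT20 and 39.7, 37.9 and 53.1 TPM at ZT8. The groups overlapped, since ZT20 replicate 1 was the lowest of all 7 (difference 0.18, SE 0.27, limma adjusted p = 0.667). As a share of the alpha sum it was 21.2%, 33.0%, 35.4% and 33.3% at ZT20 and 42.7%, 47.8% and 39.2% at ZT8, where all ZT20 shares lay below all ZT8 shares. This share was not tested.

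The other alpha C-type gene, Pcdhac1, was at 23.4, 20.2, 25.6 and 26.5 TPM at ZT20. It was at 15.2, 0.286 and 14.6 TPM at ZT8. Groups did not overlap, and ZT8 replicate 2 was nearly without it. The difference of 1.85 did not pass (SE 0.79, limma adjusted p = 0.134), but without ZT8 replicate 2 the smaller difference of 0.64 passed (limma adjusted p = 0.024).

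The 12 variable alpha rows summed to 85.9, 80.9, 89.7 and 96.7 TPM at ZT20 and 38.1, 41.1 and 68.0 TPM at ZT8, with no overlap. The most abundant was the Pcdha11 row ENSMUSG00000102206, at 32.8, 40.0, 41.3 and 51.7 TPM at ZT20 and 10.9, 16.4 and 43.3 TPM at ZT8. ZT8 replicate 3 lay inside the ZT20 range while the other ZT8 samples were well below it (difference 1.00, SE 0.40, limma adjusted p = 0.113). Without ZT8 replicate 3 the difference was 1.54 and passed (limma adjusted p = 0.0164).

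Pcdha12 was at 8.08, 7.54, 6.32 and 8.19 TPM at ZT20 and 4.94, 3.35 and 4.66 TPM at ZT8. Its groups did not overlap and the difference of 0.69 narrowly missed the threshold (SE 0.21, limma adjusted p = 0.0531). Pcdha3 was at 6.01, 4.92, 6.95 and 5.74 TPM at ZT20 and 3.96, 4.07 and 3.24 TPM at ZT8. The groups were again separate (difference 0.53, SE 0.20, limma adjusted p = 0.103). Mean TPM of the 14 alpha rows ran from 0.404 to 47.8, and every alpha row was above 0 in all 7 samples.

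**Figure D3:**
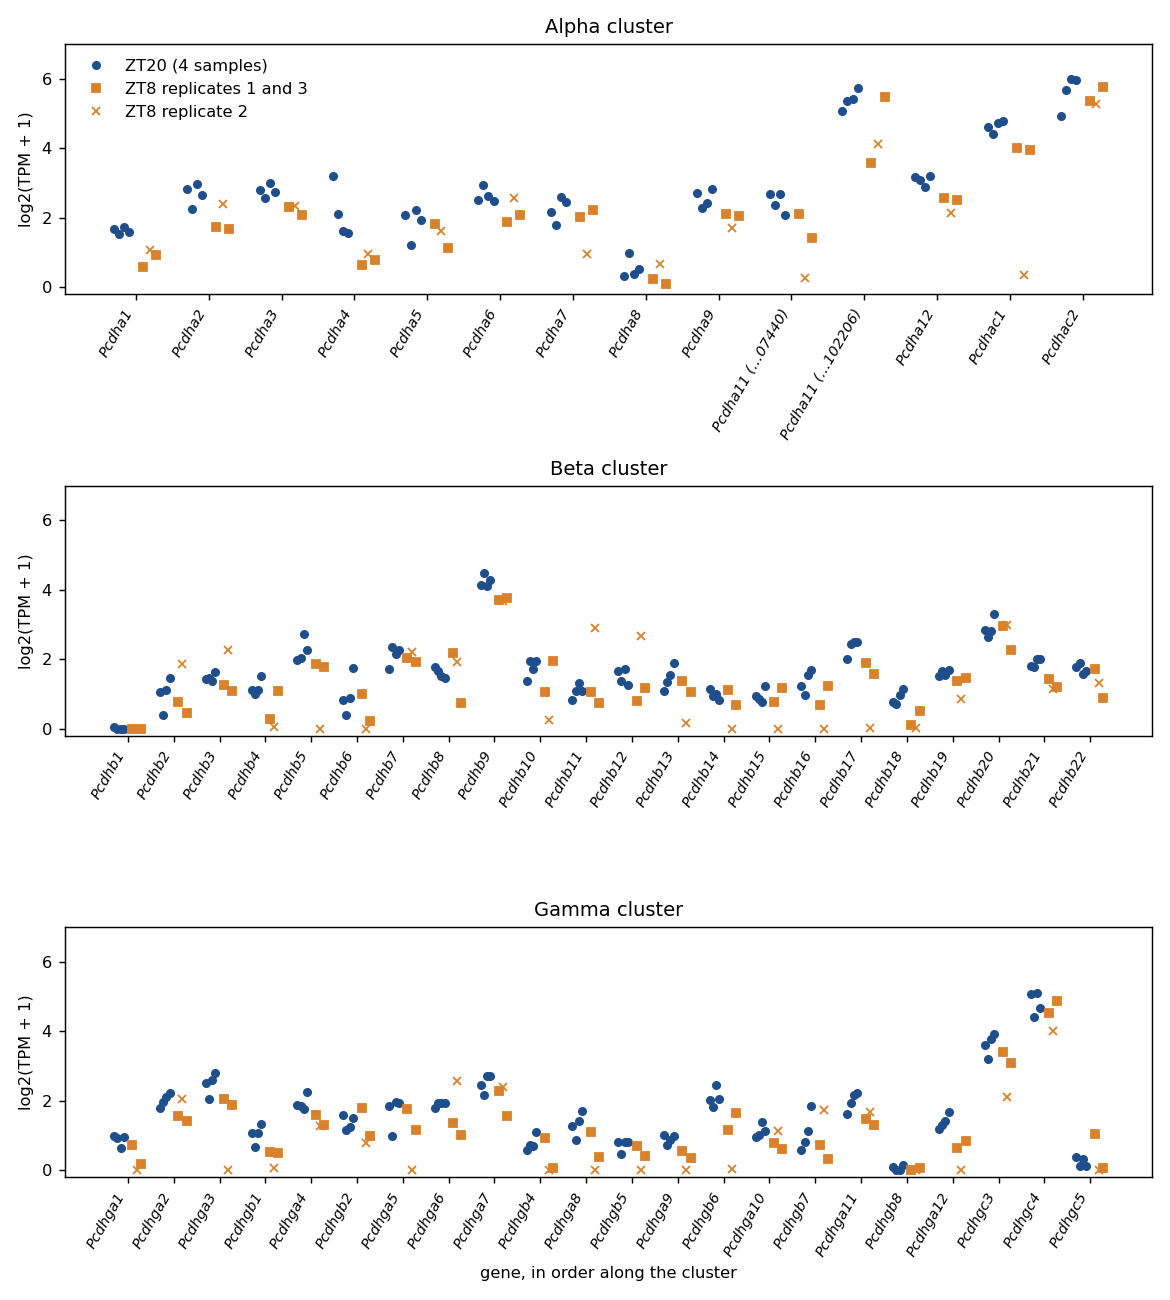
Values of the alpha, beta and gamma protocadherin genes in each sample (y axis, log2(TPM + 1)), in the order along each cluster (x axis), with circles for ZT20, squares for ZT8 replicates 1 and 3 and crosses for ZT8 replicate 2. Crosses lie at or near 0 for many beta and gamma genes, while the C-type genes Pcdhac2 and Pcdhgc4 are high in all samples.

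The beta cluster summed to 55.0, 61.8, 62.2 and 70.8 TPM at ZT20 and 47.1, 47.2 and 40.6 TPM at ZT8. Sums did not overlap, at means of 62.4 ± 6.47 TPM (SD, n = 4) at ZT20 against 45.0 ± 3.76 TPM (SD, n = 3) at ZT8, a log2 ratio of 0.47. The length and GC correction gave a log2 ratio of 0.11 and median-ratio scaling 0.22. Of 22 beta genes 16 were tested, 11 with positive and 5 with negative differences, around a median of 0.39. Limma called 0 of 16, against 16.4% of all tested genes, and 3 had an unadjusted p under 0.05, against 34.6%. The 5 of 16 beta genes whose groups did not overlap, ZT20 being higher, are near the 24.5% of all tested genes. After the correction 7 of 16 were positive.

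Beta genes are the clustered genes that reads tell apart best, since no constant exon is shared. Of their 31-base words, 77.5% to 100% (median 88.2%) occurred in no transcript of another gene. Pcdhb9 was the most abundant, at 16.7, 21.5, 16.2 and 18.5 TPM at ZT20 and 12.2, 11.8 and 12.6 TPM at ZT8. All ZT8 values were close together and below all ZT20 values, yet the difference of 0.54 did not pass (SE 0.16, limma adjusted p = 0.0522, the lowest among uncalled protocadherin genes).

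Pcdhb20 was at 6.13, 5.30, 6.07 and 8.95 TPM at ZT20 and 6.86, 6.89 and 3.79 TPM at ZT8. Its values overlapped (difference 0.17, SE 0.26, limma adjusted p = 0.68). Pcdhb7 was at 2.27, 4.14, 3.42 and 3.81 TPM at ZT20 and 3.10, 3.64 and 2.78 TPM at ZT8, likewise overlapping (difference 0.06, SE 0.24, limma adjusted p = 0.871). Pcdhb9 held 24.9% to 34.8% of the beta sum in each sample, and the 22 beta genes ranged in mean from 0.0045 to 15.7 TPM with a median of 1.88 TPM.

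The gamma cluster summed to 79.2, 58.8, 88.3 and 86.3 TPM at ZT20 and 59.6, 38.8 and 54.1 TPM at ZT8. Sums overlapped, because ZT20 replicate 2 lay below ZT8 replicate 1, at means of 78.1 ± 13.5 TPM (SD, n = 4) at ZT20 against 50.8 ± 10.8 TPM (SD, n = 3) at ZT8. The log2 ratio of 0.62 became 0.018 after the length and GC correction and 0.37 with median-ratio scaling. All 15 tested gamma genes of 22 had positive differences (median 0.49), against 66.4% of all tested genes. Limma called 0 of 15, against 16.4%, and 6 had an unadjusted p under 0.05, near the 34.6% of all tested genes. Groups did not overlap for 4 of 15, near the 24.5% of all tested genes with ZT20 higher. After the correction 8 of 15 were positive. Gamma genes share 2116 nt of constant exons, 41.7% to 45.9% of the longest transcript, except Pcdhgc5, whose longest model shares 410 nt. Unique 31-base words made up 32.2% to 78.7% of them (median 52.6%).

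Gamma C-type genes, of which Pcdhgc4 is the isoform that keeps neurons alive during development, held 45.2% to 67.0% of the gamma sum in each sample. Pcdhgc4 was at 32.5, 20.2, 33.5 and 24.6 TPM at ZT20 and 22.1, 15.1 and 28.6 TPM at ZT8. The groups overlapped (difference 0.34, SE 0.25, limma adjusted p = 0.372). Pcdhgc3, an isoform that acts on Wnt signalling through Axin1, was at 11.2, 8.29, 12.9 and 14.4 TPM at ZT20 and 9.65, 3.30 and 7.50 TPM at ZT8. ZT8 replicate 1 was above ZT20 replicate 2 (difference 0.77, SE 0.33, limma adjusted p = 0.135). With single replicates left out, the differences ran from 0.10 to 0.54 for Pcdhgc4 and from 0.39 to 1.04 for Pcdhgc3. Pcdhgc5 was below the filter, at 0.317, 0.0930, 0.255 and 0.0986 TPM at ZT20 and 1.06, 0 and 0.0557 TPM at ZT8.

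Of the gamma A and B genes, Pcdhga7 was at 4.46, 3.54, 5.61 and 5.63 TPM at ZT20 and 3.85, 4.27 and 1.94 TPM at ZT8, with overlap (difference 0.44, SE 0.28, limma adjusted p = 0.286). Pcdhga3 was at 4.76, 3.19, 5.05 and 5.93 TPM at ZT20 and at 3.19 and 2.70 TPM in ZT8 replicates 1 and 3, and listed at 0 in ZT8 replicate 2. Its lowest ZT20 and highest ZT8 values were equal to 3 digits (difference 1.18, SE 0.49, limma adjusted p = 0.126). With single replicates left out, the difference of Pcdhga3 ran from 0.52 to 1.55. Pcdhga2 was at 2.46, 2.95, 3.31 and 3.72 TPM at ZT20 and 1.94, 3.13 and 1.66 TPM at ZT8 (difference 0.36, SE 0.25, limma adjusted p = 0.339). Gamma A sums did not overlap, at 23.9 to 36.1 TPM at ZT20 and 13.6 to 20.4 TPM at ZT8. Gamma B sums did, at 6.23 to 11.2 TPM and 3.19 to 6.40 TPM.

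**Figure D4:**
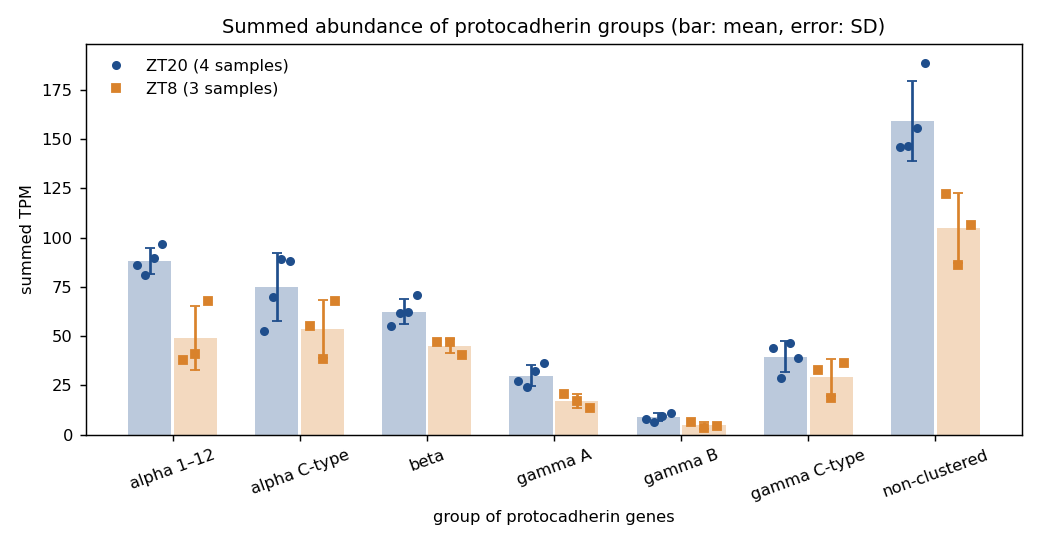
Summed TPM (y axis, from 0) of the variable alpha, alpha C-type, beta, gamma A, gamma B, gamma C-type and non-clustered protocadherin genes (x axis). Bars are means at ZT20 and ZT8, error bars are SD and points are samples (4 at ZT20, 3 at ZT8). Variable alpha, beta, gamma A and non-clustered sums do not overlap between the groups. Alpha C-type, gamma B and gamma C-type sums do.

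ZT8 replicate 2 weighed on low genes throughout. It had 19 of the 70 rows at 0 TPM, against 4 and 3 in ZT8 replicates 1 and 3, while ZT20 samples had 0 to 2. It was the lowest of the 7 samples for 50.9% of tested protocadherin genes, against 40.2% of all tested genes. The median within-group SD of log2(TPM + 1) was 0.26 at ZT20 and 0.46 at ZT8 over the protocadherin genes, and 0.22 at ZT8 without this replicate. Over all tested genes the same medians were 0.21, 0.37 and 0.18. Leaving out ZT8 replicate 2, 7 of 52 tested protocadherin genes were higher at ZT20 by limma and 0 were lower, against 16% of all genes higher. Leaving out ZT8 replicate 1 gave 5 of 53 against 12.6% of all genes higher, and leaving out ZT8 replicate 3 gave 3 of 53 against 8.72%. Leaving out any ZT20 replicate gave 1, against 4.2% to 9.8% of all genes higher.

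Of 21 genes linked to clustered protocadherin promoter choice (CTCF, cohesin and its loaders, DNA methylation and silencing factors), 20 were tested. At ZT20 5 of the 20 were higher and 0 lower, against 12.8% higher and 3.61% lower over all tested genes. They were Stag2, a cohesin subunit (log2 difference 1.64, limma adjusted p = 0.0149), Nipbl, the cohesin loader (1.04, limma adjusted p = 0.0263), the cohesin regulators Pds5b (1.03) and Pds5a (0.97), and Wiz (0.70), a zinc finger protein. Ctcf itself was at 7.47, 6.34, 6.61 and 6.56 TPM at ZT20 and 4.14, 11.4 and 4.12 TPM at ZT8, which overlapped (limma adjusted p = 0.737). After the length and GC correction 0 of the 20 passed limma, against 3.8% of all genes higher and 5.26% lower. Ctcf was singled out after its values were seen.

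Of 22 membrane signalling partners (kinases, the protease Adam10, WAVE complex subunits and Wnt signalling proteins), all tested, 8 rose at ZT20 and 1 fell, against 12.8% higher and 3.61% lower over all tested genes. Marcks, a membrane-bound protein that cross-links actin, had the largest rise, from 6.42, 15.3 and 5.74 TPM at ZT8 to 21.8, 29.3, 24.2 and 27.2 TPM at ZT20 (limma adjusted p = 0.0154). Next were Adam10, which cleaves gamma protocadherins (0.97, limma adjusted p = 0.0122), and the WAVE subunits Abi2 (0.95) and Cyfip2 (0.81). Nckap1, the WAVE subunit that Pcdh10 binds, was singled out after its values were seen. It was at 70.7, 84.2, 79.7 and 80.7 TPM at ZT20 and 47.5, 42.6 and 53.2 TPM at ZT8 (0.71, limma adjusted p = 0.0111). Pdcd10, which the alpha and gamma constant domains bind, fell by 0.72 (limma adjusted p = 0.0243). After the correction 0 of 22 were higher and 2 lower by limma, against 3.8% and 5.26% of all genes. The median difference was 0.56 before the correction, against 0.23 over all tested genes. After it the median was 0.11, against −0.0024.

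Of 28 other cadherin superfamily genes 19 were tested, with 5 higher at ZT20 and 0 lower, against 12.8% and 3.61% of all tested genes. Cdh4 (R-cadherin) was at 9.28, 13.3, 10.3 and 12.2 TPM at ZT20 and 3.62, 2.34 and 2.47 TPM at ZT8 and rose by 1.69 (limma adjusted p = 0.00398). The calsyntenins Clstn1 (1.36) and Clstn3 (1.03), N-cadherin Cdh2 (0.95) and the giant cadherin Fat3 (0.91) rose as well, at limma adjusted p-values from 0.0208 to 0.0487. After the correction 2 of 19 were higher and 1 lower, against 3.8% and 5.26% of all genes.

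Marker sums of some other cells differed between the groups. Summed TPM of 5 satellite glia markers, mostly Apoe, was 7024 to 8519 at ZT20 and 11850 to 14550 at ZT8, without overlap, and 2 of the 5 fell by the limma test, against 3.61% of all tested genes. Neuron markers (12 genes) summed to 20140 to 24910 TPM at ZT20 and 15450 to 22730 TPM at ZT8, with overlap, and 2 of 12 rose, Nefh and Elavl4, near the 12.8% of all tested genes higher. All 12 neuron markers were above 0 in all 7 samples. Macrophage markers (8 genes) summed to 137 to 204 TPM at ZT20 and 200 to 467 TPM at ZT8, with overlap. Differences were negative for 7 of the 8, while 66.4% of all tested genes had positive ones. C1qa fell (−1.17, limma adjusted p = 0.0253), 1 of 8 against 3.61% of all tested genes. C1qb did not overlap between the groups but did not pass (limma adjusted p = 0.0887). ZT8 replicate 1 had the highest C1qa, C1qb and C1qc values, at 91.8, 161 and 107 TPM. Plasma cell markers (5 genes) summed to 267 to 485 TPM at ZT20 and 496 to 933 TPM at ZT8, without overlap. Of the 4 tested, 1 fell by the limma test, Mzb1, against 3.61% of all tested genes. Jchain, at 4.18 to 176 TPM at ZT20 and 195 to 560 TPM at ZT8, did not pass (limma adjusted p = 0.102). Xbp1 and Sdc1 differed by 0.044 and −0.0047, and Tnfrsf17 was above 0 only at ZT20. Endothelial markers summed to 101 to 116 TPM and 133 to 191 TPM, nearly all Egfl7, which fell (limma adjusted p = 0.0482), while the endothelial cadherin Cdh5 was at 0 to 0.475 TPM in all samples. Sums of Schwann cell, fibroblast, mural cell and erythroid markers overlapped. With a covariate scoring neuronal against non-neuronal markers, Pcdh17 differed by 1.18 (limma adjusted p = 0.142) and 0 of 53 protocadherin genes passed, with 4 at an unadjusted p under 0.05. That fit called 1.02% of all genes, so its count for the protocadherin genes is near the background. The part of these cells in the protocadherin differences was otherwise not tested.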

How the data were processed

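The authors deposited TPM values, scaled within each sample, with a column for each of 7 samples, and 0 per-sample columns were left unused. Per the submitters' processing notes, FastQC 0.11.9, Trim Galore 0.6.6, Salmon 1.6.0, DESeq2 1.34.0 and the GRCm39 build were used, with no role or order stated. The annotation release, strandedness and treatment of reads shared between genes are not given in the sources used here, so single alpha and gamma genes are uncertain. TPM divides by transcript length and sums to the same total in each sample.

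The tested genes had mean values of 1 TPM or more, taken as log2(TPM + 1) with limma 3.58.1 in R 4.3.3 (intensity trend, no covariates, two-sided, Benjamini-Hochberg adjustment over 14800 genes, threshold 0.05). This scale understates the change of low genes. On simulated data with 200 of 14800 genes changed by 1.5 on the log2 scale, 60.5% of the changed genes were recovered, and 0 were called when none was changed. The simulated noise was independent between genes and had the same SD in both groups. The wider spread at ZT8 and shifts of whole libraries were not simulated, so false calls in these data were not measured. Length and GC content came from GENCODE M21 for 99.6% of tested genes (loess, span 0.3). Promoters came from RefSeq. Sums over genes were given without a test. Python 3.11.15, pandas 2.3.3, numpy 2.4.6, data.table (version 1.17.8) and matplotlib 3.10.9 were used.

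Protocadherin rows, gene lists and tests were chosen with earlier results of these data known. Values in every sample are given for tested non-clustered genes, C-type genes, genes passing the test, and the 3 alpha, 3 beta and 3 gamma A or B genes with the highest mean TPM. From the lists, up to 4 genes per direction that passed are named by size of difference, and the fifth (Wiz, Fat3) after its value was seen. Alternatives were another pseudocount (0.1), filters (none, 5 TPM), scalings, covariates, a replicate block, array weights, an adjusted p of 0.10, summed families and left-out replicates. The labels do not say that a replicate number marks a shared animal, litter or day.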

Additional observations from a re-analysis of the deposited data

Results flagged for a closer look

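Pcdh9 in ZT20 replicate 4 lay far from the other samples of its group, at 137.9 TPM against 105 to 106 TPM in ZT20 replicates 1 to 3. The gap to the nearest sample was 0.961 of the group's range, above Dixon's critical value for 4 samples. Among 27 results tested in this way, this was the only one, and chance alone would give about 1.4. Without this replicate the log2 difference of Pcdh9 between ZT20 and ZT8 was 0.45, against 0.54 with it.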

How the results depend on the processing

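Pcdh17 stayed positive under every alternative run, and Pcdh18 under every one except the filter of 5 TPM, which removed it. Under all of them 0 protocadherin genes were lower at ZT20. The number higher, 2 in the reported fit, was 0 with the length and GC correction, the marker covariate, and without ZT20 replicates 3 and 4 or 2, 3 and 4. It was 1, Pcdh17, without a filter, with median-ratio scaling and with quantile normalization. With the Y-linked score as covariate it was 1, but neither Pcdh17 nor Pcdh18, which both lost their calls. A pseudocount of 0.1 gave 2 of 53 (11.7% of all genes higher), the 5 TPM filter 3 of 12 (16.5%) and the fit without the intensity trend 5 of 53 (12.6%), each with Pcdh17 but without Pcdh18 among them. Array weights gave 9 of 53 (20.1%), with both. An adjusted p under 0.10 gave 14, a count to be read beside those over all genes in the next paragraph. Single replicates left out gave 1 to 7.

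Over all genes, 1899 were higher and 534 lower. The counts were 978 and 200 without a filter, 1089 and 1260 with median-ratio scaling, 1023 and 814 with quantile normalization, 561 and 775 with the length and GC correction, 147 and 4 with the marker covariate, 284 and 29 with the Y-linked score, 2982 and 917 with array weights, 3098 and 981 at an adjusted p under 0.10, and 332 lower without the intensity trend. They were 0 and 0 without ZT20 replicates 3 and 4 (2378 at an unadjusted p under 0.05 by limma) and without ZT20 replicates 2, 3 and 4 (1155). The latter leaves 1 ZT20 sample, assumed to vary like the ZT8 samples, and its counts of 0 say nothing about stability. Left-out single replicates gave 620 to 2375 higher and 103 to 672 lower.

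The log2 ratios of summed TPM were 0.51 to 0.92 (alpha), 0.41 to 0.53 (beta), 0.46 to 0.75 (gamma) and 0.48 to 0.73 (non-clustered) with single replicates left out. The correction gave 0.055, 0.11, 0.018 and −0.027, and median-ratio scaling gave 0.22 for beta and 0.36 for non-clustered genes.

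Directions turned for genes that did not pass. Of the 53 tested genes 21 turned with the length and GC correction, 9 with quantile normalization, 3 with median-ratio scaling, 7 with the Y-linked score, 9 with the marker covariate, 7 with array weights, 3 with a pseudocount of 0.1, 3 with the block, 20 with the block and correction together, and 1 to 7 with single replicates left out. The lists that follow cover only the genes whose values are given in every sample under the naming rule. With the length and GC correction these were Pcdhgc4 (−0.21), Pcdh7 (−0.056), Pcdh11x (−0.42), Pcdh8 (−0.35), Pcdhb7 (−0.19), Pcdhb20 (−0.062), Pcdh10 (−0.0012), Pcdh1 (−0.28), Pcdh9 (−0.027), Pcdhac2 (−0.41), Pcdhga2 (−0.12) and Pcdhga7 (−0.033). With quantile normalization these were Pcdh11x (−0.30), Pcdh8 (−0.30), Pcdhb7 (−0.24), Pcdhb20 (−0.18) and Pcdh1 (−0.028), and with median-ratio scaling Pcdhb7 (−0.13), Pcdhb20 (−0.048) and Pcdhac2 (−0.068). With the Y-linked score they were Pcdh11x (−0.12), Pcdh8 (−0.036), Pcdhb7 (−0.053) and Pcdhac2 (−0.26), with the marker covariate Pcdhgc4 (−0.29), Pcdh8 (−0.46) and Pcdh19 (0.33), and with array weights Pcdh8 (−0.082) and Pcdh19 (0.41). Without ZT20 replicates 3 and 4, Pcdhb7 was at −0.021 and Pcdhac2 at −0.17, and without 2, 3 and 4 at −0.35 and −0.54. With single replicates left out, the ranges that crossed 0 among these genes were −0.017 to 0.20 (Pcdh11x), −0.28 to 0.45 (Pcdh8), −0.017 to 0.20 (Pcdhb7), −0.071 to 0.29 (Pcdhb20) and −0.43 to 0.38 (Pcdh19). The cause was not tested.

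With the replicate number as a block, 1 protocadherin gene was higher, and 891 genes were higher and 283 lower over all. With the block and the length and GC correction, 0 protocadherin genes passed, with 248 higher and 309 lower over all, and Pcdhgc4 (−0.12), Pcdh7 (−0.063), Pcdh11x (−0.55), Pcdh8 (−0.33), Pcdhb7 (−0.22), Pcdhb20 (−0.18), Pcdh1 (−0.30), Pcdh9 (−0.092), Pcdhac2 (−0.48), Pcdhga2 (−0.15) and Pcdhga7 (−0.064) turned among the same genes. Deviations of same-numbered samples correlated at −0.014, 0.15 and 0.083 (Pearson's r across genes) for replicates 1, 2 and 3. Differently numbered samples gave −0.17 to 0.15. Deviations were taken from the group means, so they cannot decide whether the numbers pair the samples. Depth is unknown, which limits all genes near 1 TPM.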

Other observations

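Other read-through models that span protocadherin exons were listed beside the members. Gm37388 was at 3.79 TPM in ZT20 replicate 3 and 2.62 TPM in ZT8 replicate 2 and at 0 in the other samples, and Gm37013 was at 0 in all 7 samples.

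Some low genes were highest in ZT8 replicate 2, the library with the fewest genes above 0. Pcdhb11 was at 6.43 TPM there against 0.667 to 1.48 TPM in the other 6 samples, and Pcdhb12 at 5.31 against 0.735 to 2.30 TPM. In all, 6 protocadherin rows had their highest value in that library and 39 of the 70 rows had their lowest. These genes were chosen after their values were seen.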
